A study of Mus musculus with 24 samples.

Results

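RNA of stem cells was compared with RNA of transit-amplifying (TA) cells from crypts of the small intestine of the same 4 Setd1a knockout mice. The 8 libraries used were those labelled stem (4) and TA (4) of the homozygous animals, out of 24 in the series. The 4 animals, coded BN45, BO25, BO57 and BP04, are called hom here and carried the genotype Setd1aFC/FC; Lgr5-eGFP-CreERT2. The control animals, called het, carried Setd1aFC/+; Lgr5-eGFP-CreERT2, and their 4 stem and 4 TA libraries are used only to set the same contrast beside the hom one. All animals of both genotypes received 1 mg tamoxifen by intraperitoneal injection on each of 3 days running, and tissue was collected 4 days past induction. Crypt cells were dissociated, stained for CD24, CD326 (EpCAM), CD45 and a dead-cell dye, and sorted. The labels give no age, and no gate for either fraction. CreERT2 was driven from the Lgr5 locus, so a TA cell of a hom animal carries the deletion only where it descends from a recombined Lgr5 cell, and this driver line is known for mosaic expression.

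Crypt base columnar stem cells express Lgr5, a receptor for R-spondins that raises Wnt signalling, and divide to give TA cells. TA cells move up the crypt, divide several more times and commit either to the absorptive lineage of enterocytes or to the secretory lineages of goblet, Paneth, enteroendocrine and tuft cells. Notch signalling favours the absorptive fate and the transcription factor Atoh1 drives the secretory one. Setd1a is a methyltransferase of histone H3 lysine 4 that acts at active promoters in a COMPASS complex.

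Setd1a (GRCm38 chromosome 7, 127776670 to 127800122) had 4.21, 6.81, 7.78 and 4.66 CPM in hom stem libraries, against 5.13, 7.54, 5.41 and 5.92 CPM in hom TA libraries, with the animals in the order BN45, BO25, BO57 and BP04, which holds for every set of 4 values below. CPM are counts scaled to the library size after TMM normalisation. The fractions overlapped (log2 fold change -0.06, SE 0.25, adjusted p = 0.913). Counts sum over all exons of the gene, so these values do not measure the deletion. Library totals were 37423979, 38092726, 29110318 and 31279936 counts in hom stem and 32361611, 27998132, 28407993 and 32709930 in hom TA libraries. Lgr5 (chromosome 10, 115450311 to 115587780), which marks the stem cells, had 247, 237, 228 and 203 CPM in hom stem libraries, against 17.2, 18.2, 12.2 and 16.3 CPM in hom TA libraries, and every stem library lay above every TA library. Of the genes for the sort antibodies, Cd24a was higher in stem libraries (log2 fold change 0.48, SE 0.10, adjusted p = 0.0349). Its adjusted p was above 0.05 in fits without BN45 (0.1075), BO25 (0.127) and BP04 (0.1122). Epcam was at 1635 to 2544 CPM in stem against 1985 to 2145 CPM in TA libraries, and Ptprc, which codes for CD45, was under the filter on low counts. The 92 spike-in sequences reached no more than 6 counts in any library.

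Of 15954 genes tested, 618 (3.87%) were higher and 809 (5.07%) lower in hom stem than in hom TA libraries, 1427 (8.94%) in all. The test was the edgeR quasi-likelihood F test with the animal as a block, at a Benjamini-Hochberg adjusted p under 0.05, and a gene past it is said to be called. The median log2 fold change over all genes tested was -0.01. Stem libraries lay above all TA libraries for 988 genes (6.19%) and below all of them for 1088 (6.82%). A fold change is stem over TA on the log2 scale throughout, values after ± are SDs over n = 4 libraries, and list counts are given over the members that passed the filter. The 618 and 809 calls fell to 164 and 201 without BO25 and to 194 and 277 without BN45. They fell to 196 and 271 without BO57 and to 262 and 366 without BP04. Each such fit had 6 libraries, and the cause of the lower counts was not tested. Because nearly every list lost calls in these fits, the animals are named beside each group of genes.

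Genes of the crypt base stood higher in hom stem libraries. Of 35 stem cell markers, all of which were tested, 25 were called higher and 0 lower, with a median of 1.28. In sorted bulk RNA, fewer cells of a type and less RNA per cell cannot be told apart. Lgr5 averaged 229 ± 18.8 CPM in stem against 16 ± 2.65 CPM in TA libraries (log2 fold change 3.85, SE 0.13, adjusted p = 0.000317). The animals carry Lgr5-eGFP and no gate is given. Where the sort used eGFP, a higher Lgr5 in stem libraries follows from the sort and is no independent result. Olfm4, a secreted glycoprotein of crypt base cells and a Notch target, had 48304, 36058, 31628 and 33274 CPM in hom stem libraries, against 10248, 6409, 7809 and 7801 CPM in hom TA libraries. For Olfm4 every stem library lay above every TA library (log2 fold change 2.21, SE 0.08, adjusted p = 0.000414). Ascl2, the Wnt-dependent transcription factor of stem cell identity, had 105, 122, 98.9 and 112 CPM in hom stem libraries, against 37.6, 24.7, 34 and 34.8 CPM in hom TA libraries. Here too every stem library lay above every TA library (log2 fold change 1.75, SE 0.16, adjusted p = 0.00437). Soat1, which esterifies cholesterol, averaged 612 ± 149 CPM in stem against 118 ± 34.3 CPM in TA libraries (log2 2.39, adjusted p = 0.000281). Rgmb, a co-receptor of the BMP pathway, averaged 309.7 ± 17.2 CPM in stem against 80.9 ± 7.43 CPM in TA libraries (log2 1.94, adjusted p = 0.00112). The other markers called higher included Smoc2, Slc12a2, Cdca7, Igfbp4, Prom1, Sox9 and Aqp4. Bmi1 and Hopx, proposed as markers of cells above the crypt base, did not pass. Bmi1 had a log2 fold change of 0.16 (adjusted p = 0.807) and Hopx of 0.59 (adjusted p = 0.286). Lgr5, Olfm4, Ascl2, Soat1 and Rgmb stayed called whichever 1 animal was left out. The count of 25 was 21 without BN45, 20 without BO25, 21 without BO57 and 24 without BP04.

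**Figure D1:**
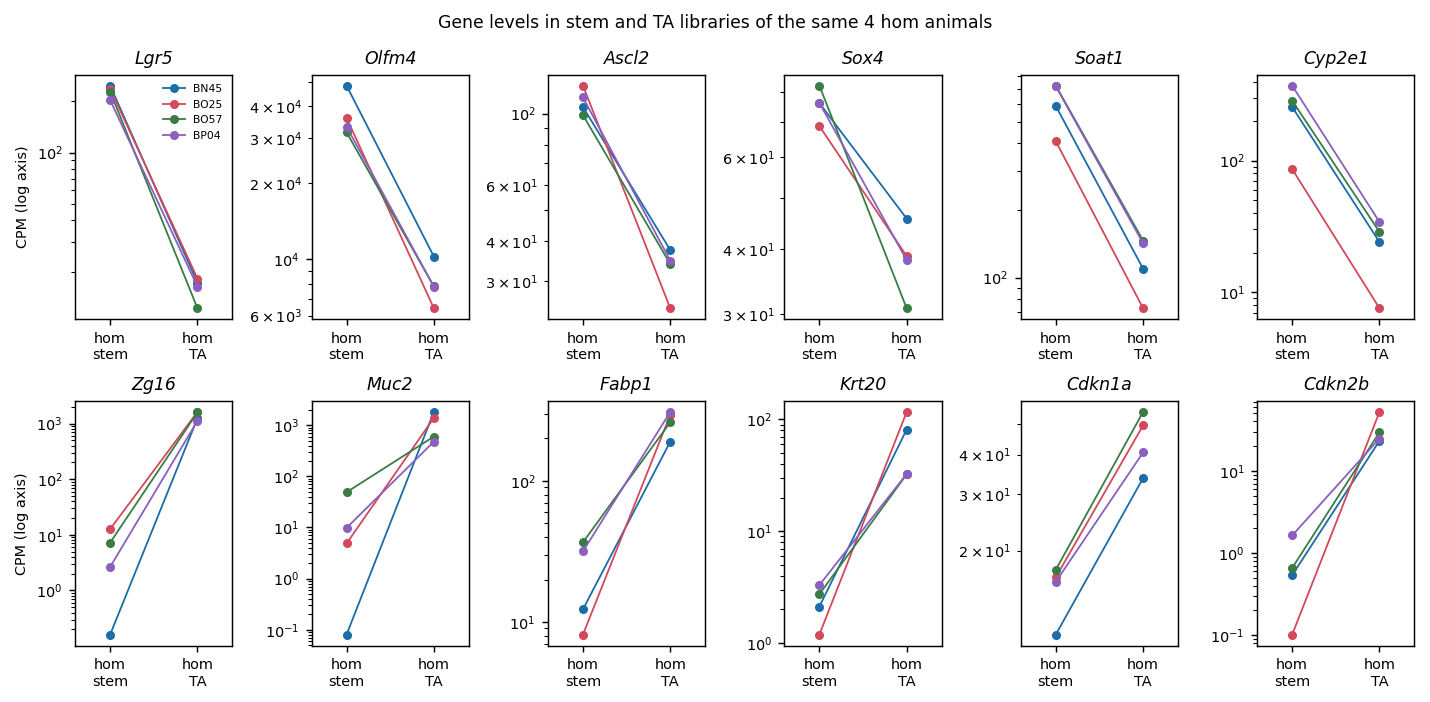
Levels of 12 genes in CPM on a log axis, 1 panel per gene, with hom stem on the left and hom TA on the right of each panel. Each line joins the 2 libraries of 1 hom animal. Lgr5, Olfm4, Ascl2, Sox4, Soat1 and Cyp2e1 were higher in the stem library of each animal, and Zg16, Muc2, Fabp1, Krt20, Cdkn1a and Cdkn2b were lower.

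Across the 8 libraries, the 4 genes whose log2 CPM followed Lgr5 most closely were Rgmb (Pearson r = 0.99), Fam216a (0.99), L3mbtl3 (0.99), a reader of methylated lysines, and Hbp1 (0.98), an HMG-box repressor. This likeness follows the split between the fractions and is a description. Fam216a averaged 10.4 ± 1.18 CPM in stem against 2.17 ± 0.548 CPM in TA libraries. L3mbtl3 averaged 11.4 ± 0.401 CPM in stem against 7.48 ± 0.219 CPM in TA libraries, and Hbp1 140.2 ± 6.13 CPM in stem against 66.4 ± 7.93 CPM in TA libraries. L3mbtl3 was not called (log2 0.61, SE 0.18, adjusted p = 0.0948), while Rgmb, Fam216a and Hbp1 were.

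Wnt feedback and target genes were mostly higher in hom stem libraries. Of 24 listed genes 21 were tested, 13 were called higher and 1 lower, with a median of 1.04. Of the 13, 7 stand in the stem marker list too. Axin2, the feedback inhibitor used as a readout of the pathway, had 17.8, 31.2, 35.9 and 23.1 CPM in hom stem libraries, against 12.3, 17.9, 15.2 and 14.4 CPM in hom TA libraries. Its difference was small and passed the threshold (log2 fold change 0.81, SE 0.17, adjusted p = 0.0382). Rnf43, a ubiquitin ligase that removes Frizzled receptors, averaged 68.2 ± 20.0 CPM in stem against 22.4 ± 2.31 CPM in TA libraries (log2 1.57, adjusted p = 0.00553). Nkd1, another feedback inhibitor, had 4.18, 4.35, 1.28 and 2.65 CPM in hom stem libraries, against 0.0300, 0, 0.215 and 0 CPM in hom TA libraries. TA libraries held almost none of it, so the size of its fold change depends on the prior count of the fit (log2 fold change 6.17, SE 1.36, adjusted p = 0.0443). Myc, a Wnt target that drives growth, averaged 246 ± 57.9 CPM in stem against 130.1 ± 43.2 CPM in TA libraries (log2 0.94, adjusted p = 0.0151). The called gene that was lower was Zbtb7a (log2 -0.94, adjusted p = 0.0391). Ephb2 overlapped between the fractions (log2 0.07, adjusted p = 0.909), with 11.4, 19.8, 19.7 and 22.4 CPM in hom stem libraries, against 20.0, 13.3, 17.2 and 18.3 CPM in hom TA libraries. Rnf43 stayed called whichever 1 animal was left out. Axin2 (0.0856 to 0.129) had an adjusted p above 0.05 whichever 1 animal was left out. Nkd1 was above 0.05 without BN45 (0.163), BO25 (0.135) and BP04 (0.105), and Myc without BN45 (0.0525), BO25 (0.0683) and BO57 (0.0623). The count of 13 was 5 without BN45, 5 without BO25, 7 without BO57 and 8 without BP04.

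Promoter windows of the genes that were most increased in hom stem libraries were searched for the letters of the T-cell factor motif, through which Wnt signalling acts. The motif was searched as CTTTGAA or CTTTGAT on either strand. Of the 14 genes of largest increase 11 had a window, and a match was found for 3 of these, Cyp2e1, Slc1a2 and Tnfrsf19. The windows of the first pair are shown because they held a match. The 250 bases before a RefSeq start of Cyp2e1 on the + strand (chr7:140763569-140763818) and of Slc1a2 on the + strand (chr2:102706188-102706437), both on GRCm38.p6, are shown 5′ to 3′ with the motif in capitals. The Slc1a2 window lies inside the gene, which spans 102658659 to 102790784, and not before its 5′ end.
Cyp2e1: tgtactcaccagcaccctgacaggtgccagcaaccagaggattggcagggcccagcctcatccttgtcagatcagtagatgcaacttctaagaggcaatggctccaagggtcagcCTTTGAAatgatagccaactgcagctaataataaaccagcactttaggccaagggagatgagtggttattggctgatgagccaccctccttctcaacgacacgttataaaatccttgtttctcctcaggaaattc
Slc1a2: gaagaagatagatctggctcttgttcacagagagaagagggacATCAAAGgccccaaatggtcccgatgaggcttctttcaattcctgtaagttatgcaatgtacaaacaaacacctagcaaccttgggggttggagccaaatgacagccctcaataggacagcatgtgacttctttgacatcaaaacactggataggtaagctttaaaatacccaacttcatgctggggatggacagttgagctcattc
The Cyp2e1 match begins at position -135 on the gene's own strand, and the Slc1a2 match at -207 is the reverse complement. Tnfrsf19 had a reverse match at -202 in 1 of its windows, which also lies inside the gene. The windows of Slc38a4, Esr1, Ccdc3, Gper1, Vav3, Fstl1, Gkn3 and Ldhb held no match, and Lgr5, Clu and AC079441.1 had no entry. Of other stem and Wnt genes, Sp5 had a match at -104, and Olfm4, Ascl2, Axin2 and Rgmb were among those with none. Matches were also found for Scn2b and Tgif1, both called higher. The match of Tgif1 was a reverse one at -151 in 1 of its windows. Of 12774 windows of 300 bases at 10026 tested genes, 6.38% held the motif. Windows were found for 62.9% of the 15940 tested symbols, and genes without a window could not be counted. Counted per gene with a window, the motif was found for 60 of 460 genes called higher in hom stem libraries. It was found for 39 of 592 genes called lower and for 760 of all 10026 tested genes. The core letters of the HNF4 motif, CAAAGTC on either strand, were searched as well, and can overlap the letters of the T-cell factor motif. They were found for 22 of 460 genes called higher, 47 of 592 called lower and 474 of all 10026. Whether the shares of either motif differ was not tested. A match is a description of letters, not of binding.

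Cyp2e1, a cytochrome P450 that oxidises ethanol, had 256, 86.2, 286 and 372 CPM in hom stem libraries, against 24, 7.54, 28.8 and 34.2 CPM in hom TA libraries. It was lower in both libraries of BO25 than in the other animals, yet every stem library lay above every TA library (log2 fold change 3.42, SE 0.09, adjusted p = 0.000149). Slc1a2, a glutamate transporter, averaged 38.1 ± 11.4 CPM in stem against 2.90 ± 1.20 CPM in TA libraries (log2 3.77, adjusted p = 0.00432). Slc38a4, a sodium-coupled amino acid transporter, had 13, 13.6, 13.3 and 20.2 CPM in hom stem libraries, against 0.240, 0.0335, 0.394 and 0 CPM in hom TA libraries. The TA libraries were at or near 0 (log2 fold change 6.62, SE 0.82, adjusted p = 0.00915). Tnfrsf19, also called Troy and a receptor of the TNF family, averaged 65.7 ± 27.7 CPM in stem against 7.12 ± 3.97 CPM in TA libraries (log2 3.32, adjusted p = 0.00687). Vav3, a guanine nucleotide exchange factor, averaged 35.8 ± 5.67 CPM in stem against 4.50 ± 3.23 CPM in TA libraries (log2 3.30, adjusted p = 0.0120). Fstl1, which codes for a secreted protein, averaged 34.7 ± 8.58 CPM in stem against 4.29 ± 2.78 CPM in TA libraries (log2 3.20, adjusted p = 0.00724). The gastrokine Gkn3 averaged 334 ± 223 CPM in stem against 47.4 ± 30.9 CPM in TA libraries (log2 2.85, adjusted p = 0.00112). Cyp2e1, Slc1a2, Slc38a4, Tnfrsf19, Vav3, Fstl1 and Gkn3 stayed called whichever 1 animal was left out.

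Others among the 14 genes of largest increase were Ccdc3, which codes for a secreted coiled-coil protein, AC079441.1 (5.44, SE 0.70, adjusted p = 0.00986), Gper1, a membrane oestrogen receptor, Ldhb, a lactate dehydrogenase subunit, and the secreted chaperone Clu. Ccdc3 averaged 20.4 ± 4.88 CPM in stem against 1.79 ± 0.869 CPM in TA libraries (log2 3.57, adjusted p = 0.00865). Gper1 averaged 10.2 ± 5.75 CPM in stem against 1.02 ± 0.665 CPM in TA libraries (log2 3.31, adjusted p = 0.0279). Ldhb averaged 10.3 ± 8.43 CPM in stem against 1.76 ± 1.72 CPM in TA libraries (log2 2.85, adjusted p = 0.0137). Esr1, the oestrogen receptor, averaged 48.6 ± 6.71 CPM in stem against 2.34 ± 0.994 CPM in TA libraries (log2 4.43, adjusted p = 0.00378). CreERT2 holds a part of the human oestrogen receptor and is made from the Lgr5 locus in every animal here, so reads of the transgene and of Esr1 cannot be told apart. Ccdc3 and Esr1 stayed called whichever 1 animal was left out. Gper1 (0.0537 to 0.0870) had an adjusted p above 0.05 whichever 1 animal was left out. AC079441.1 was above 0.05 without BO25 (0.0537), and Ldhb without BO25 (0.0620) and BP04 (0.0541).

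Among the signals of the crypt niche, single genes passed and most did not. Of 23 Wnt ligand and receptor genes 15 were tested and 2 were called, both of them higher, against 1 without BO57 and 0 without any other animal. Fzd7, a Frizzled receptor of stem cells, averaged 21.1 ± 4.10 CPM in stem against 10.2 ± 2.28 CPM in TA libraries (log2 1.05, adjusted p = 0.0450), and Wls, which carries Wnt ligands to the surface, averaged 209 ± 74.4 CPM in stem against 119 ± 24 CPM in TA libraries (log2 0.77, adjusted p = 0.0210). Wnt3 had 0 to 4.13 CPM in stem against 1.26 to 2.85 CPM in TA libraries and Fzd5 35.3 to 81.5 CPM in stem against 81.7 to 117 CPM in TA libraries, with adjusted p of 0.561 and 0.0730. Of 18 Notch pathway genes 15 were tested and 3 were called higher, against 1 without BO57 and 2 without any other animal. These were Olfm4, the Notch effector Hes1 with 179 ± 30.6 CPM in stem against 119 ± 24.5 CPM in TA libraries (log2 0.61, adjusted p = 0.0105), and Dtx4 (log2 0.88, adjusted p = 0.0135). Notch1 averaged 2.81 ± 0.927 CPM in stem against 2.11 ± 0.658 CPM in TA libraries (log2 0.39, adjusted p = 0.668) and its ligand Dll1 18.8 ± 5.68 CPM in stem against 25.6 ± 11.5 CPM in TA libraries (log2 -0.39, adjusted p = 0.620). Fzd7 (0.0792 to 0.135) had an adjusted p above 0.05 whichever 1 animal was left out. Wls was above 0.05 without BN45 (0.0766), BO25 (0.0874) and BP04 (0.0731), Hes1 without BO25 (0.0514) and BO57 (0.0528), and Dtx4 without BN45 (0.0563), BO57 (0.0626) and BP04 (0.0535).

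Of 21 EGF family genes 16 were tested and 3 were called higher, namely the ligand Nrg4 (1.97, SE 0.22, adjusted p = 0.00729), the receptor antagonist Lrig1 (1.17, SE 0.15, adjusted p = 0.0101) and the feedback inhibitor Errfi1 (0.68, SE 0.15, adjusted p = 0.0418). The count was 1 without BO25 and 2 or 3 without another animal. Errfi1 was higher in both BN45 libraries than in the other animals, with 219.8, 34.1, 46 and 25.9 CPM in hom stem libraries, against 117, 20.4, 25.5 and 22.7 CPM in hom TA libraries. Egfr averaged 33.5 ± 6.31 CPM in stem against 26 ± 4.90 CPM in TA libraries (log2 0.37, adjusted p = 0.244) and Erbb3 108 ± 16.1 CPM in stem against 103 ± 10.5 CPM in TA libraries (log2 0.06, adjusted p = 0.775). Of 21 BMP pathway genes 19 were tested, with Rgmb called higher and Id3, a target of BMP signalling, called lower (log2 fold change -0.56, SE 0.10, adjusted p = 0.0282). Over all genes tested, 3.87% were called higher and 5.07% lower. The receptor Bmpr1a averaged 96.1 ± 12.8 CPM in stem against 87.2 ± 20.0 CPM in TA libraries (log2 0.16, adjusted p = 0.386). Of 15 Eph receptor and ephrin genes, which sort cells along the crypt, 11 were tested and 2 were called higher, Ephb3 with 17.6 ± 3.96 CPM in stem against 4.73 ± 2.52 CPM in TA libraries (log2 2.02, adjusted p = 0.0101) and Efna4 (log2 1.15, adjusted p = 0.0371). The higher count was 2 without BP04 and 1 without any other animal, and 1 gene was called lower without BP04. The ligand Efnb1 was at 1.62 to 3.75 CPM in stem against 2.15 to 8.68 CPM in TA libraries (log2 -0.80, adjusted p = 0.176). Nrg4 and Ephb3 stayed called whichever 1 animal was left out. Id3 (0.0593 to 0.115) and Efna4 (0.0599 to 0.135) had an adjusted p above 0.05 whichever 1 animal was left out. Lrig1 was above 0.05 without BO25 (0.0553) and BO57 (0.0528), and Errfi1 without BN45 (0.173), BO25 (0.131) and BO57 (0.133).

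Goblet cell genes were lower in hom stem libraries. Of 20 goblet cell markers 19 were tested, 15 were called lower and 0 higher, with a median of -5.01. Zg16, a lectin-like protein of goblet cell granules, had 0.161, 12.7, 7.26 and 2.65 CPM in hom stem libraries, against 1248, 1619, 1593 and 1118 CPM in hom TA libraries. For Zg16 every stem library lay below every TA library (log2 fold change -8.45, SE 0.86, adjusted p = 0.00580). Muc2, the gel-forming mucin, had 0.0805, 4.86, 48.9 and 9.83 CPM in hom stem libraries, against 1815, 1394, 600.2 and 477 CPM in hom TA libraries. Its stem libraries spread over a wide range and all lay below the TA libraries (log2 fold change -6.93, SE 1.54, adjusted p = 0.0446). Clca1, a metalloprotease of mucus, had 12.6, 0.127, 3.28 and 3.37 CPM in hom stem libraries, against 575, 484, 229.9 and 390.4 CPM in hom TA libraries. Its groups did not overlap either (log2 fold change -6.88, SE 0.86, adjusted p = 0.00931). Tff3, the trefoil peptide, averaged 52.9 ± 35.7 CPM in stem against 1428 ± 702 CPM in TA libraries (log2 -4.87, adjusted p = 0.0190), and Spink4 48.5 ± 40.2 CPM in stem against 1241 ± 707 CPM in TA libraries (log2 -4.83, adjusted p = 0.0228). Further goblet markers that were lower were Fcgbp (-5.81, SE 1.05, adjusted p = 0.0252), Rep15 (-5.85, SE 0.82, adjusted p = 0.0126), Fer1l6 (-6.84, SE 1.43, adjusted p = 0.0382), Capn9 (-5.50, SE 1.15, adjusted p = 0.0382) and Ccl9 (-4.34, SE 0.57, adjusted p = 0.0105). Zg16 and Clca1 stayed called whichever 1 animal was left out. Muc2 (0.0615 to 0.156) and Capn9 (0.0634 to 0.0980) had an adjusted p above 0.05 whichever 1 animal was left out. Tff3 was above 0.05 without BN45 (0.0901) and BO57 (0.0554), Spink4 without BN45 (0.0710) and BO25 (0.0859), and Fcgbp without BN45 (0.0997), BO25 (0.0619) and BO57 (0.0603). Rep15 was above 0.05 without BO25 (0.0575) and BO57 (0.0616), Fer1l6 without BN45 (0.124), BO25 (0.142) and BO57 (0.119), and Ccl9 without BO25 (0.0593). The count of 15 goblet markers was 5 without BN45, 3 without BO25, 6 without BO57 and 11 without BP04.

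The summed goblet markers made up 0.0604 ± 0.0552% of counts in hom stem and 1.26 ± 0.536% in hom TA libraries, lower in the stem library of 4 of 4 animals (two-sided exact permutation test over pairs, p = 0.13, the smallest that 4 pairs allow). Of 24 glycosyltransferases that build the sugar chains of mucins, 19 were tested, 10 were called lower and 1 higher. St3gal4, a sialyltransferase, averaged 9.75 ± 3.83 CPM in stem against 365 ± 180.4 CPM in TA libraries (log2 -5.20, adjusted p = 0.00105), and C1galt1, which makes the core structure, averaged 41.2 ± 13.6 CPM in stem against 98.3 ± 15.9 CPM in TA libraries (log2 -1.31, adjusted p = 0.0370). Of the enzymes that start the chains, Galnt7 averaged 64.9 ± 12.6 CPM in stem against 123 ± 13.8 CPM in TA libraries (log2 -0.94, adjusted p = 0.0250). Galnt10 averaged 9.71 ± 2.37 CPM in stem against 20.3 ± 5.84 CPM in TA libraries (log2 -1.06, adjusted p = 0.0218). St6galnac2 was the member that was higher (log2 fold change 1.03, SE 0.09, adjusted p = 0.00381). The part of goblet cells in these values was not tested. St3gal4 and St6galnac2 stayed called whichever 1 animal was left out. Galnt10 (0.0646 to 0.0950) had an adjusted p above 0.05 whichever 1 animal was left out. C1galt1 was above 0.05 without BN45 (0.143), BO25 (0.0931) and BO57 (0.0984), and Galnt7 without BN45 (0.112), BO25 (0.111) and BO57 (0.0973). The count of 10 was 2 without BN45, 1 without BO25, 1 without BO57 and 6 without BP04.

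**Figure D2:**
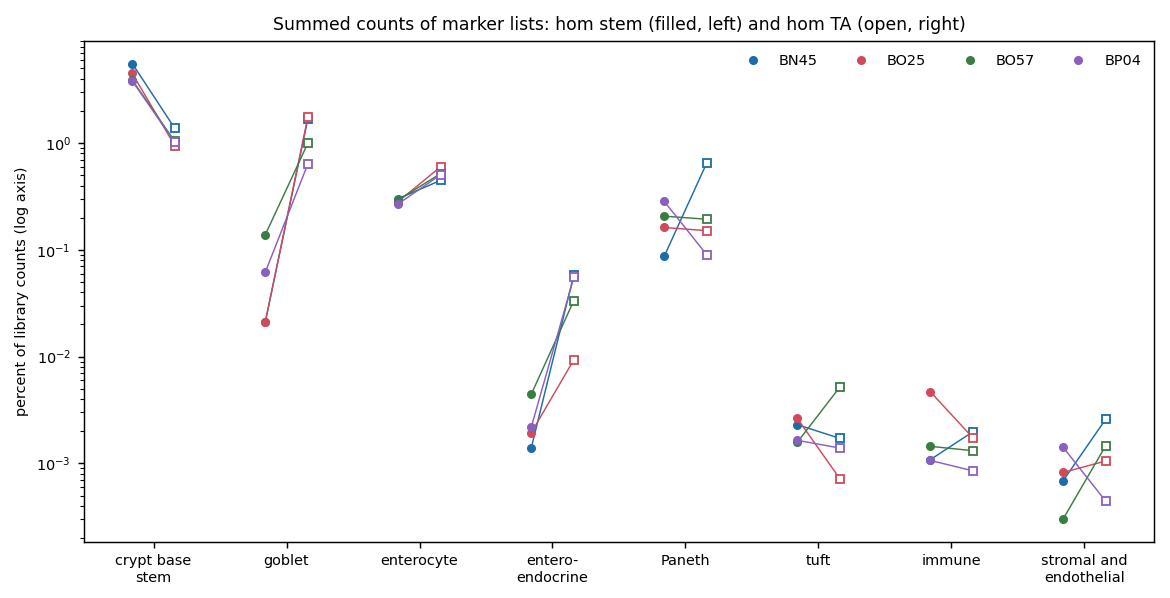
Summed counts of 8 marker lists as percent of library counts on a log axis, with the hom stem library (filled) left of the hom TA library (open) and a line per animal. Stem markers were higher and goblet, enterocyte and enteroendocrine markers lower in the stem library of each animal, while Paneth, tuft, immune and stromal markers crossed.

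Regulators of the secretory fate were mostly lower in hom stem libraries. Of 16 secretory transcription factors 15 were tested, 4 were called lower and 1 higher. Of the 15, 13 had a negative and 2 a positive fold change, with a median of -1.84. Atoh1 had 7.56, 3.04, 9.78 and 5.34 CPM in hom stem libraries, against 56.8, 58.3, 31.2 and 12.4 CPM in hom TA libraries, and every stem library lay below every TA library (log2 fold change -2.49, SE 0.53, adjusted p = 0.0394). Spdef, which acts in goblet and Paneth maturation, averaged 0.740 ± 0.525 CPM in stem against 14.6 ± 8.33 CPM in TA libraries (log2 -4.40, adjusted p = 0.0438). Gfi1 was at 0 to 0.587 CPM in stem against 2.76 to 5.77 CPM in TA libraries and did not pass (adjusted p = 0.108). Xbp1, a factor of the secretory apparatus, averaged 258 ± 41.8 CPM in stem against 382 ± 69.2 CPM in TA libraries (log2 -0.57, adjusted p = 0.0226), and Creb3l4 was the other factor that was lower (log2 -1.82, adjusted p = 0.0475). Sox4 was the gene that was higher, with 76, 68.7, 82.1 and 76.1 CPM in hom stem libraries, against 45.7, 38.7, 30.8 and 38 CPM in hom TA libraries. In each animal the stem value exceeded the TA value (log2 fold change 0.99, SE 0.14, adjusted p = 0.0132). Atoh1 (0.0505 to 0.149) and Spdef (0.0623 to 0.165) had an adjusted p above 0.05 whichever 1 animal was left out. Xbp1 was above 0.05 without BN45 (0.0975), BO25 (0.0905) and BP04 (0.0796), and Sox4 without BO25 (0.0556) and BP04 (0.0534). The count of 4 was 0 without BN45, 0 without BO25, 2 without BO57 and 0 without BP04.

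Other genes among the 14 of largest decrease were Ramp1, a subunit of the receptor for calcitonin gene-related peptide, the glycosyltransferase Mgat4c, the actin-severing protein Scin, the anoctamin Ano7, the gasdermin Gsdmc3 and the cell cycle inhibitor Cdkn2b. Ramp1 averaged 0.230 ± 0.358 CPM in stem against 19.5 ± 5.99 CPM in TA libraries (log2 -6.92, adjusted p = 0.0132). Mgat4c averaged 0.134 ± 0.251 CPM in stem against 12.4 ± 13.3 CPM in TA libraries (log2 -6.89, adjusted p = 0.0136). Scin had 0.0536, 0.0253, 2.35 and 6.53 CPM in hom stem libraries, against 108, 118, 112 and 36.1 CPM in hom TA libraries, and BP04 had the smallest gap (log2 fold change -6.26, SE 1.41, adjusted p = 0.0466). Ano7 averaged 0.672 ± 0.797 CPM in stem against 27.1 ± 9.13 CPM in TA libraries (log2 -5.81, adjusted p = 0.0286). Ano7 (0.0567 to 0.0882) had an adjusted p above 0.05 whichever 1 animal was left out. Ramp1 was above 0.05 without BO25 (0.0577), Mgat4c without BO25 (0.0590) and BO57 (0.0556), and Scin without BN45 (0.135), BO25 (0.126) and BO57 (0.138).

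Of 24 enteroendocrine markers 14 were tested and 2 were called lower by edgeR and 9 by DESeq2, and edgeR called 0 without BP04 and 2 or 3 without another animal. Chgb, a protein of hormone granules, had 0.215, 3.47, 0.657 and 0.136 CPM in hom stem libraries, against 67.2, 16.8, 98.6 and 5.92 CPM in hom TA libraries (log2 fold change -5.68, SE 1.12, adjusted p = 0.0329). Sct, the hormone secretin, averaged 0.844 ± 0.637 CPM in stem against 9.48 ± 3.70 CPM in TA libraries (log2 -3.66, adjusted p = 0.0455). Chga was at 0.242 to 1.29 CPM in stem against 0.129 to 32.5 CPM in TA libraries and missed the threshold (adjusted p = 0.246). The median over the 14 was -4.95, and the summed markers were at 0.00248 ± 0.00134% of counts in hom stem and 0.0390 ± 0.0226% in hom TA libraries, lower in 4 of 4 stem libraries (exact p = 0.13). Chgb was above 0.05 without BN45 (0.107), BO57 (0.120) and BP04 (0.0842), and Sct without BO25 (0.144), BO57 (0.116) and BP04 (0.0799).

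Paneth cell markers showed no common direction between hom stem and hom TA libraries over the 4 animals, and BN45 differed from the rest. Of 21 markers tested 10 had a positive and 11 a negative fold change, with a median of -0.01. The median was 1.06 without BN45, -0.19 without BO25, -0.08 without BO57 and -0.27 without BP04. In BN45 the summed markers were lower in the stem library, and in the other animals they were higher. edgeR called only the stress protein gene Nupr1, which was lower (log2 fold change -1.38, SE 0.31, adjusted p = 0.0447), and DESeq2 called 2 markers higher and 2 lower. Lyz1, the Paneth lysozyme, had 185, 301, 391 and 542 CPM in hom stem libraries, against 1062, 93.7, 237 and 138 CPM in hom TA libraries, with the TA library of BN45 far above the rest (log2 0.64, adjusted p = 0.676). Mmp7 was at 29.6 to 53.3 CPM in stem against 38.9 to 429 CPM in TA libraries (log2 -1.66, adjusted p = 0.191) and Defa24 at 309 to 1246 CPM in stem against 383 to 2848 CPM in TA libraries (log2 -0.40, adjusted p = 0.808), and defensins are close copies that share reads. The summed Paneth markers ranged over 0.0869 to 0.284% of counts in hom stem libraries and 0.0900 to 0.652% in hom TA libraries (exact p = 1). Of 20 tuft cell markers 10 were tested and 0 were called by edgeR, 0 by DESeq2 and 1 by limma-voom, and their sum ranged over 0.00157 to 0.00265% of counts in hom stem libraries and 0.000721 to 0.00517% in hom TA libraries. Nupr1 (0.0585 to 0.132) had an adjusted p above 0.05 whichever 1 animal was left out.

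Genes of digestion and absorption were lower in hom stem libraries. Of 35 enterocyte genes 33 were tested, 19 were called lower and 2 higher, with a median of -1.51. Fabp1, which binds fatty acids, had 12.3, 8.15, 36.8 and 31.7 CPM in hom stem libraries, against 189.7, 294, 260.3 and 308 CPM in hom TA libraries. For Fabp1 every stem library lay below every TA library (log2 fold change -3.78, SE 0.40, adjusted p = 0.00611). Alpi, the alkaline phosphatase of the brush border, averaged 1.69 ± 1.64 CPM in stem against 31.2 ± 9.08 CPM in TA libraries (log2 -4.84, adjusted p = 0.0242). Apoa1, an apolipoprotein, averaged 7.87 ± 5.18 CPM in stem against 59 ± 34.6 CPM in TA libraries (log2 -2.93, adjusted p = 0.00899), and Rbp2, which binds retinol, 6.12 ± 5.07 CPM in stem against 98.8 ± 42.6 CPM in TA libraries (log2 -4.39, adjusted p = 0.00432). Fabp2, another fatty acid binding protein, averaged 239.9 ± 90.7 CPM in stem against 666 ± 198 CPM in TA libraries (log2 -1.51, adjusted p = 0.00366). Prap1 averaged 208 ± 91.4 CPM in stem against 417 ± 173 CPM in TA libraries (log2 -1.01, adjusted p = 0.00347). The galectin Lgals3 averaged 5.65 ± 2.51 CPM in stem against 27.9 ± 8.24 CPM in TA libraries (log2 -2.35, adjusted p = 0.00366). Mep1a (log2 1.61, adjusted p = 0.0149) and Clca4b (log2 0.59, adjusted p = 0.0250) were the members that were higher. Fabp1, Fabp2, Rbp2, Prap1 and Lgals3 stayed called whichever 1 animal was left out. Apoa1 was above 0.05 without BN45 (0.0508), and Alpi without BO25 (0.0981), BO57 (0.0653) and BP04 (0.0564). The summed enterocyte genes were at 0.287 ± 0.0137% of counts in hom stem and 0.519 ± 0.0634% in hom TA libraries, lower in 4 of 4 stem libraries (exact p = 0.13). The count of 19 was 14 without BN45, 12 without BO25, 12 without BO57 and 14 without BP04.

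Lectins and antimicrobial genes that enterocytes switch on towards the villus were lower too, with 10 of 15 tested called lower and 0 higher. Dmbt1, a scavenger receptor protein of the mucosa, had 358, 302, 445 and 417 CPM in hom stem libraries, against 2341, 2487, 2449 and 2914 CPM in hom TA libraries. All stem values lay below all TA values (log2 fold change -2.75, SE 0.11, adjusted p = 0.000414). Reg3b averaged 528 ± 525 CPM in stem against 1492 ± 1263 CPM in TA libraries (log2 -1.83, adjusted p = 0.0362), Reg3g 946 ± 724 CPM in stem against 3209 ± 2389.6 CPM in TA libraries (log2 -1.88, adjusted p = 0.00378) and Reg1 21 ± 10.8 CPM in stem against 267 ± 140.0 CPM in TA libraries (log2 -3.65, adjusted p = 0.00880). Lypd8, which keeps flagellated bacteria off the epithelium, averaged 1438 ± 172 CPM in stem against 3187 ± 161 CPM in TA libraries (log2 -1.15, adjusted p = 0.00255). The gasdermin Gsdmc4 averaged 7.05 ± 3.48 CPM in stem against 106 ± 31.9 CPM in TA libraries (adjusted p = 0.00366). Gsdmc3 averaged 0.430 ± 0.484 CPM in stem against 19.3 ± 4.26 CPM in TA libraries (log2 -5.88, adjusted p = 0.00586). Reg3 and Gsdmc genes have close copies, so single values are uncertain. Dmbt1, Reg3g, Lypd8, Gsdmc4 and Gsdmc3 stayed called whichever 1 animal was left out. Reg3b (0.0575 to 0.138) had an adjusted p above 0.05 whichever 1 animal was left out. Reg1 was above 0.05 without BO25 (0.0511). The count of 10 was 8 without BN45, 5 without BO25, 8 without BO57 and 7 without BP04.

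Transcription factors of the absorptive lineage were lower in part. Of 23 listed factors 21 were tested, 5 were called lower and 1 higher. Hnf4g averaged 53 ± 15.7 CPM in stem against 149 ± 58.1 CPM in TA libraries (log2 -1.42, adjusted p = 0.0112), while its paralog Hnf4a had 234 ± 29.9 CPM in stem against 257 ± 13.1 CPM in TA libraries (log2 -0.14, adjusted p = 0.370). Klf4, a factor of postmitotic cells, averaged 9.13 ± 3.32 CPM in stem against 33.4 ± 9.74 CPM in TA libraries (log2 -1.89, adjusted p = 0.0159), and Klf5, a factor of proliferating crypt cells, 219 ± 26.5 CPM in stem against 402 ± 58.4 CPM in TA libraries (log2 -0.87, adjusted p = 0.0119). Creb3l3 averaged 2.22 ± 1.65 CPM in stem against 8.23 ± 6.08 CPM in TA libraries (log2 -1.93, adjusted p = 0.0320), and Isx was the remaining one that was lower (log2 -0.51, adjusted p = 0.0455). The vitamin D receptor gene Vdr was the one that was higher (log2 0.47, adjusted p = 0.0495). Cdx2, the factor of intestinal identity, was at 5.08 to 10.2 CPM in stem against 5.59 to 14.3 CPM in TA libraries (log2 -0.12, adjusted p = 0.800). Creb3l3 (0.0556 to 0.133) had an adjusted p above 0.05 whichever 1 animal was left out. Hnf4g was above 0.05 without BO25 (0.0576) and BO57 (0.0540), Klf4 without BN45 (0.0667), BO25 (0.0781) and BP04 (0.0563), and Klf5 without BN45 (0.0645). The count of 5 was 1 without BN45, 1 without BO25, 2 without BO57 and 2 without BP04.

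Of 18 brush border genes 17 were tested, 4 were called lower and 1 higher, against 1 lower and 0 higher without any 1 animal. Myo1a, a motor of the microvillus, averaged 47.2 ± 10.1 CPM in stem against 98.6 ± 20.7 CPM in TA libraries (log2 -1.06, adjusted p = 0.0107), and the cadherin Cdhr5 13.6 ± 5.21 CPM in stem against 27.1 ± 13.5 CPM in TA libraries (log2 -0.93, adjusted p = 0.0284). Eps8, which caps actin filaments, was higher (log2 fold change 0.82, SE 0.15, adjusted p = 0.0260), and Vil1 averaged 126 ± 15 CPM in stem against 155 ± 27.9 CPM in TA libraries (log2 -0.30, adjusted p = 0.118). Of 24 annexin, S100 and keratin genes 23 were tested, 8 were called lower and 2 higher. Anxa2 averaged 109 ± 21.9 CPM in stem against 341 ± 45.4 CPM in TA libraries (log2 -1.66, adjusted p = 0.00247), Anxa13 26.6 ± 7.77 CPM in stem against 206 ± 49.2 CPM in TA libraries (log2 -2.97, adjusted p = 0.00521) and Krt20, the keratin of differentiated cells, 2.33 ± 0.902 CPM in stem against 65.7 ± 41 CPM in TA libraries (log2 -4.64, adjusted p = 0.0107). Krt8 was lower too (log2 fold change -0.85, SE 0.08, adjusted p = 0.00543), and Krt23 was higher (log2 fold change 1.79, SE 0.16, adjusted p = 0.00432). Of 25 claudin and junction genes 23 were tested, with Cldn8, Ocln and Cldn4 higher and Cldn7 and Cldn23 lower. The list had 0 calls without BO25 and 2 in each fit without another animal. Cldn8 averaged 41 ± 7.57 CPM in stem against 15.3 ± 4.44 CPM in TA libraries (log2 1.45, adjusted p = 0.0123) and Ocln, which codes for occludin, 312 ± 23.3 CPM in stem against 206 ± 10.3 CPM in TA libraries (log2 0.60, adjusted p = 0.0139). Anxa2, Anxa13, Krt8 and Krt23 stayed called whichever 1 animal was left out. Cdhr5 (0.0602 to 0.132) and Eps8 (0.0580 to 0.109) had an adjusted p above 0.05 whichever 1 animal was left out. Krt20 was above 0.05 without BN45 (0.0593), Myo1a without BO57 (0.0546), and Cldn8 without BO25 (0.0640). Ocln was above 0.05 without BN45 (0.0603), BO25 (0.0654) and BP04 (0.0576). The count of 8 was 6 without BN45, 7 without BO25, 8 without BO57 and 7 without BP04.

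Genes that detoxify foreign compounds were lower in hom stem libraries, with 15 of 29 tested called lower and 0 higher. Aldh1a1, an aldehyde and retinal dehydrogenase, had 6.65, 6.05, 2.63 and 3.09 CPM in hom stem libraries, against 24.8, 31.2, 20.9 and 31.4 CPM in hom TA libraries. All of its stem values lay below all TA values (log2 fold change -2.64, SE 0.29, adjusted p = 0.00639). Nqo1, a quinone reductase, averaged 31.2 ± 9.00 CPM in stem against 118 ± 16.9 CPM in TA libraries (log2 -1.95, adjusted p = 0.00228). The glutathione transferase Gsta1 averaged 1.78 ± 1.45 CPM in stem against 45 ± 16.2 CPM in TA libraries (log2 -4.88, adjusted p = 0.00979). Gstp1, another, averaged 292 ± 52.6 CPM in stem against 473 ± 74.4 CPM in TA libraries (log2 -0.70, adjusted p = 0.00521). Ces2e, a carboxylesterase with close copies, averaged 74.3 ± 14.6 CPM in stem against 304 ± 63.3 CPM in TA libraries (log2 -2.03, adjusted p = 0.00366), and Cyp3a13 29.7 ± 11.7 CPM in stem against 76.4 ± 30.2 CPM in TA libraries (log2 -1.38, adjusted p = 0.0135). Cyp2c55 was at 10.2 to 42.2 CPM in stem against 6.02 to 12.3 CPM in TA libraries (log2 1.52, adjusted p = 0.0616). Aldh1a1, Nqo1, Gstp1 and Ces2e stayed called whichever 1 animal was left out. Gsta1 was above 0.05 without BN45 (0.0542), and Cyp3a13 without BO25 (0.0688) and BO57 (0.0546). The count of 15 was 8 without BN45, 8 without BO25, 8 without BO57 and 10 without BP04.

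**Figure D3:**
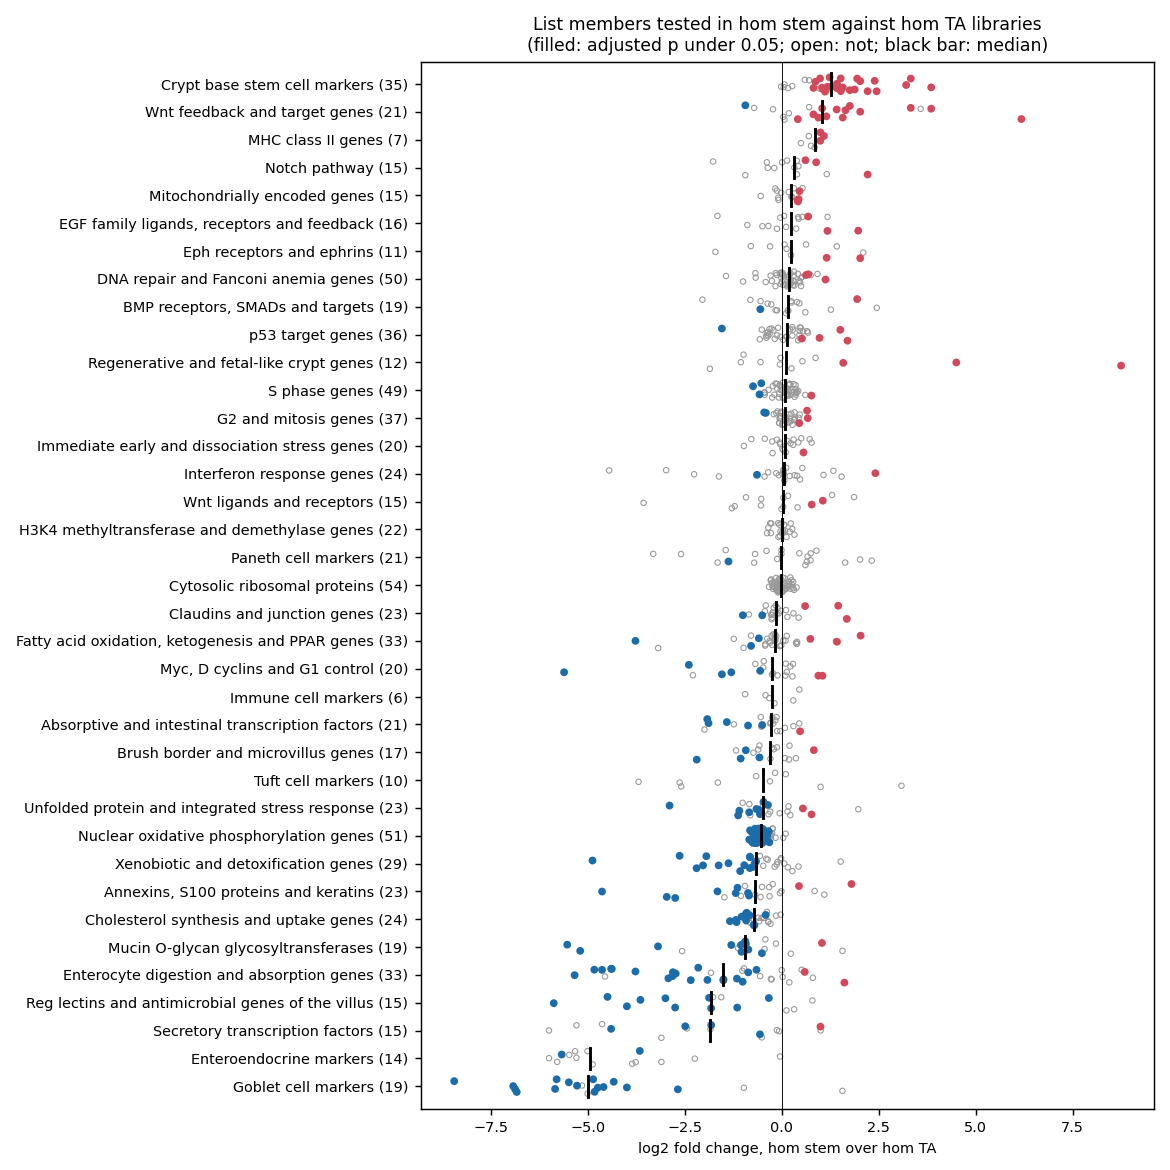
Log2 fold change of hom stem over hom TA libraries for the tested members of 37 gene lists, ordered by their median (black bar), with the number tested in brackets. Filled points were called higher (red) or lower (blue) and open points were not called. Stem markers, Wnt feedback genes and MHC class II genes have the highest medians, and goblet, enteroendocrine, secretory factor, Reg lectin and enterocyte lists the lowest.

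Most cell cycle genes did not pass in either direction. Of 49 S phase genes 1 was called higher and 3 lower, and of 37 G2 and mitosis genes 3 were higher and 2 lower, against 3.87% and 5.07% of all genes. Without 1 animal 0 or 1 gene of either list was called in either direction. Mki67 had 165, 185, 141 and 179 CPM in hom stem libraries, against 157, 209, 176 and 236 CPM in hom TA libraries (log2 fold change -0.21, SE 0.10, adjusted p = 0.256), and Pcna averaged 198 ± 26.5 CPM in stem against 211 ± 46.9 CPM in TA libraries (log2 -0.07, adjusted p = 0.698). The helicase subunit Mcm2 averaged 73 ± 14.9 CPM in stem against 58.5 ± 5.95 CPM in TA libraries (log2 0.30, adjusted p = 0.266). The genes called in S phase were Pola2, which was higher (log2 0.76, adjusted p = 0.0142), and Rrm2 (log2 -0.58, adjusted p = 0.0151), Tk1 (log2 -0.53, adjusted p = 0.0439) and Ccne2 (log2 -0.74, adjusted p = 0.0194), which were lower. Ccnb1, the mitotic cyclin, averaged 228 ± 41.6 CPM in stem against 167 ± 25 CPM in TA libraries (log2 0.45, adjusted p = 0.0446). Pola2 (0.0542 to 0.0687), Tk1 (0.0893 to 0.132) and Ccnb1 (0.0756 to 0.136) had an adjusted p above 0.05 whichever 1 animal was left out. Rrm2 was above 0.05 without BN45 (0.0603), BO57 (0.0662) and BP04 (0.0555), and Ccne2 without BN45 (0.0843), BO25 (0.0756) and BP04 (0.0742).

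Of 21 genes of G1 control 20 were tested, 2 were called higher and 5 lower. The lower count was 2 without BN45 and 3 in each fit without another animal, and the higher count was 2 without BP04 and 1 without any other. Cdkn1a, the inhibitor p21, had 10.9, 16.5, 17.4 and 16 CPM in hom stem libraries, against 33.7, 49.3, 54.4 and 40.6 CPM in hom TA libraries. Its stem libraries all lay below its TA libraries (log2 fold change -1.55, SE 0.13, adjusted p = 0.00378). Cdkn2b, the inhibitor p15, had 0.536, 0.101, 0.657 and 1.63 CPM in hom stem libraries, against 23.3, 52.2, 29.5 and 24.8 CPM in hom TA libraries. Every stem value lay below every TA value (log2 fold change -5.62, SE 0.75, adjusted p = 0.0107). Rb1, the retinoblastoma protein gene, averaged 14.2 ± 3.93 CPM in stem against 34.4 ± 5.21 CPM in TA libraries (log2 -1.30, adjusted p = 0.00687). Cdk6, a G1 kinase, was higher with 99.9 ± 6.83 CPM in stem against 48.7 ± 7.40 CPM in TA libraries (log2 1.05, adjusted p = 0.00552), as was Myc. Ccnd1 averaged 31.5 ± 4.78 CPM in stem against 36.8 ± 3.58 CPM in TA libraries (log2 -0.23, adjusted p = 0.357). Cdkn1a, Rb1 and Cdk6 stayed called whichever 1 animal was left out. Cdkn2b was above 0.05 without BN45 (0.0563) and BO57 (0.0568).

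Genes of oxidative phosphorylation encoded in the nucleus were lower by a small and even margin in hom stem libraries. Of 51 tested genes 40 were called lower and 0 higher, with a median of -0.54. Cox5a, a subunit of cytochrome oxidase, had 191, 283, 339 and 347 CPM in hom stem libraries, against 316, 474, 625 and 600.3 CPM in hom TA libraries. In every animal the stem value was below the TA value, although the ranges of the fractions overlapped (log2 fold change -0.79, SE 0.07, adjusted p = 0.00425). Cox6c averaged 332 ± 33.4 CPM in stem against 542 ± 57 CPM in TA libraries (log2 -0.71, adjusted p = 0.00454). The complex I subunit Ndufa5 averaged 137 ± 23.2 CPM in stem against 235 ± 33.9 CPM in TA libraries (log2 -0.78, adjusted p = 0.00503). Ndufb9, of the same complex, averaged 213 ± 78.6 CPM in stem against 344 ± 139.5 CPM in TA libraries (log2 -0.67, adjusted p = 0.00639). The catalytic subunits Ndufs1 (log2 0.10, adjusted p = 0.495) and Sdha (log2 0.03, adjusted p = 0.879) did not pass. Cox5a, Cox6c, Ndufa5 and Ndufb9 stayed called whichever 1 animal was left out. The count of 40 was 21 without BN45, 12 without BO25, 20 without BO57 and 21 without BP04, and 8 without the animal as a block. Their summed counts were 2.19 ± 0.127% of counts in hom stem and 2.96 ± 0.260% in hom TA libraries, lower in 4 of 4 stem libraries (exact p = 0.13).

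Of 15 mitochondrially encoded genes tested 4 were called higher and 0 lower, against 2 higher without BN45, 0 without BO25, 3 without BO57, 0 without BP04 and 0 without the animal as a block. mt-Atp6, an ATP synthase subunit, averaged 792 ± 284 CPM in stem against 583 ± 223 CPM in TA libraries (log2 0.45, adjusted p = 0.0141), and mt-Co1, of cytochrome oxidase, 23219.8 ± 2981 CPM in stem against 17689 ± 3404 CPM in TA libraries (log2 0.40, adjusted p = 0.0439). mt-Nd1 averaged 23973 ± 2633 CPM in stem against 25607 ± 3047 CPM in TA libraries (log2 -0.09, adjusted p = 0.550). Their sum took 16.1 ± 2.72% of counts in hom stem and 13.9 ± 1.75% in hom TA libraries, higher in 4 of 4 stem libraries (exact p = 0.13). Of 54 cytosolic ribosomal protein genes edgeR called 0, and DESeq2 called 3 higher and 1 lower. An unadjusted p under 0.05 was found for 8 of the 54, against 4142 of all 15954 genes tested. Rpl3 averaged 208 ± 34.8 CPM in stem against 169 ± 13.8 CPM in TA libraries (log2 0.29, adjusted p = 0.0979) and Rps6 81.4 ± 2.80 CPM in stem against 68.8 ± 6.42 CPM in TA libraries (log2 0.25, adjusted p = 0.163). Their median was -0.03, and reads of ribosomal protein genes can be shared with pseudogenes. mt-Atp6 was above 0.05 without BO25 (0.0628), BO57 (0.0514) and BP04 (0.0634), and mt-Co1 without BN45 (0.137), BO25 (0.140) and BP04 (0.133).

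Among 33 genes of fatty acid oxidation, ketogenesis and PPAR response, 3 were called higher and 3 lower, against 1 or 2 higher and 1 lower without 1 animal. Among those that were higher, Plin2, which coats lipid droplets, averaged 154 ± 38 CPM in stem against 92.5 ± 19.8 CPM in TA libraries (log2 0.73, adjusted p = 0.0173), and the acyl-CoA thioesterase Acot1 64 ± 14.4 CPM in stem against 26.3 ± 13.7 CPM in TA libraries (log2 1.42, adjusted p = 0.0164). Cpt1a, which brings fatty acids into mitochondria, was lower with 91.6 ± 25.5 CPM in stem against 157 ± 27.5 CPM in TA libraries (log2 -0.80, adjusted p = 0.0493), as was Fabp1. Ppara was at 2.11 to 6.57 CPM in stem against 5.61 to 11.4 CPM in TA libraries (log2 -1.24, adjusted p = 0.142). Cpt1a (0.0581 to 0.135) had an adjusted p above 0.05 whichever 1 animal was left out. Plin2 was above 0.05 without BN45 (0.0780), BO25 (0.0748) and BO57 (0.0765), and Acot1 without BO25 (0.0631) and BP04 (0.0639).

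Of 24 genes of cholesterol synthesis and uptake, 11 were called lower and 0 higher, with a median of -0.72. Hmgcs1, a synthase of the early steps of the pathway, had 76.3, 69.1, 98.3 and 101 CPM in hom stem libraries, against 181, 173, 156 and 191 CPM in hom TA libraries. All stem values lay below all TA values (log2 fold change -1.04, SE 0.13, adjusted p = 0.00932). Sqle, which oxidises squalene, averaged 42 ± 9.43 CPM in stem against 78.5 ± 8.81 CPM in TA libraries (log2 -0.92, adjusted p = 0.0236). The transfer protein Stard4 averaged 60.2 ± 16.2 CPM in stem against 111 ± 11.4 CPM in TA libraries (log2 -0.91, adjusted p = 0.0107). Sqle (0.0568 to 0.0787) had an adjusted p above 0.05 whichever 1 animal was left out. Hmgcs1 was above 0.05 without BN45 (0.0519), and Stard4 without BN45 (0.0585). The count of 11 was 0 without BN45, 3 without BO25, 4 without BO57 and 3 without BP04.

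Of 23 tested genes of the unfolded protein and integrated stress response, 9 were called lower and 2 higher. Ern2, the stress sensor of goblet cells, averaged 0.774 ± 0.250 CPM in stem against 5.76 ± 1.51 CPM in TA libraries (log2 -2.90, adjusted p = 0.0116). Manf averaged 114 ± 30.3 CPM in stem against 240.1 ± 42.4 CPM in TA libraries (log2 -1.10, adjusted p = 0.00705), and the chaperone Dnajc3 86.5 ± 12 CPM in stem against 135 ± 3.31 CPM in TA libraries (log2 -0.66, adjusted p = 0.0144). Hspa5 had 851 ± 132 CPM in stem against 1076 ± 103 CPM in TA libraries (log2 -0.35, adjusted p = 0.0583). The members that were higher were Asns (log2 0.54, adjusted p = 0.0238) and Herpud1 (log2 0.76, adjusted p = 0.0341). The summed goblet markers moved in the same direction, and their part in this was not tested. Manf stayed called whichever 1 animal was left out. Ern2 was above 0.05 without BN45 (0.0619), BO25 (0.0591) and BO57 (0.0547), and Dnajc3 without BN45 (0.0706) and BO25 (0.0754). The count of 9 was 1 without BN45, 1 without BO25, 4 without BO57 and 6 without BP04.

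Single genes of the DNA damage lists differed between hom stem and hom TA libraries, and edgeR called none of the histone methylation list. Of 37 p53 target genes 36 were tested, 4 were called higher and 1, Cdkn1a, lower. The higher count was 0 without BO25 and 1 or 2 without another animal. Plk2 averaged 39.9 ± 10.6 CPM in stem against 12.8 ± 5.67 CPM in TA libraries (log2 1.69, adjusted p = 0.0112), Ccng2 25.2 ± 6.84 CPM in stem against 12.7 ± 3.00 CPM in TA libraries (log2 0.97, adjusted p = 0.0426) and Trp53 itself 153 ± 30.3 CPM in stem against 106 ± 14.6 CPM in TA libraries (log2 0.52, adjusted p = 0.0276), with Trp53inp1 as the fourth (log2 1.51, adjusted p = 0.0430). Mdm2 averaged 52.8 ± 14.5 CPM in stem against 42.8 ± 3.95 CPM in TA libraries (log2 0.27, adjusted p = 0.396). Of 50 DNA repair genes 3 were called higher and 0 lower, while 3.87% of all genes tested were called higher and 5.07% lower. The 3 were Rad51b (1.12, SE 0.24, adjusted p = 0.0403), Chek2 (0.68, SE 0.15, adjusted p = 0.0435) and Msh3 (0.63, SE 0.12, adjusted p = 0.0320). The higher count was 0 without BN45 or BO25 and 1 without BO57 or BP04. Of 23 genes for methyltransferases and demethylases of histone H3 lysine 4 or their partners, 22 were tested. Among these, edgeR called 0, and DESeq2 called 0 higher and 1 lower. An unadjusted p under 0.05 was found for 2 of the 22, against 4142 of all 15954 genes tested. Setd1b, the paralog of Setd1a, averaged 18.1 ± 1.93 CPM in stem against 22.2 ± 3.91 CPM in TA libraries (log2 -0.29, adjusted p = 0.267), and their shared partner Cxxc1 15.8 ± 3.00 CPM in stem against 19.9 ± 0.630 CPM in TA libraries (log2 -0.35, adjusted p = 0.296). Ccng2 (0.0917 to 0.122), Trp53 (0.0598 to 0.109), Rad51b (0.0906 to 0.110) and Msh3 (0.0771 to 0.115) had an adjusted p above 0.05 whichever 1 animal was left out. Plk2 was above 0.05 without BO25 (0.0593), and Chek2 without BN45 (0.141), BO25 (0.142) and BP04 (0.121).

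Of 7 MHC class II genes, which intestinal stem cells are known to express, 3 were called higher and 0 lower in hom stem libraries, with a median of 0.84. H2-Aa had 460.1, 437, 175 and 117 CPM in hom stem libraries, against 271, 178, 70.4 and 60.6 CPM in hom TA libraries. BN45 and BO25 were higher than BO57 and BP04 in both fractions, so the fractions overlapped, but in each animal the stem value was above the TA value (log2 fold change 1.08, SE 0.12, adjusted p = 0.00639). H2-Ab1 averaged 664 ± 277 CPM in stem against 341 ± 170.1 CPM in TA libraries (log2 0.99, adjusted p = 0.0120) and H2-Eb1 267 ± 157 CPM in stem against 139 ± 94.8 CPM in TA libraries (log2 0.99, adjusted p = 0.0104). Cd74, the invariant chain, averaged 485 ± 247 CPM in stem against 265 ± 114 CPM in TA libraries (log2 0.84, adjusted p = 0.123). Of 20 immune cell markers 6 passed the filter and 0 were called; Ms4a1 was at 0.937 to 4.69 CPM in stem against 0.644 to 9.47 CPM in TA libraries, and the summed markers ranged over 0.00107 to 0.00471% of counts in hom stem libraries and 0.000853 to 0.00197% in hom TA libraries. Of 18 stromal and endothelial markers 3 passed and 0 were called, with a sum of 0.000302 to 0.00142% of counts in hom stem libraries and 0.000443 to 0.00260% in hom TA libraries. No class II gene was called without the animal as a block. H2-Aa stayed called whichever 1 animal was left out. H2-Ab1 was above 0.05 without BO25 (0.0628), and H2-Eb1 without BO57 (0.0528).

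In the interferon, immediate early and regenerative lists edgeR called 1 to 3 genes in each, beside 3.87% higher and 5.07% lower over all genes. Of 24 tested interferon response genes Ifi44 was called higher (log2 fold change 2.41, SE 0.30, adjusted p = 0.00945) and Psmb9 lower (log2 fold change -0.64, SE 0.09, adjusted p = 0.0109). Without BN45 0 were called in either direction, and without BO25 0 were called lower. Of 20 tested genes that dissociation and stress switch on, Egr1 was called higher by edgeR (log2 fold change 0.54, SE 0.12, adjusted p = 0.0412). DESeq2 called 7 of the 20 higher and 0 lower, against 1500 higher and 1650 lower over all genes. An unadjusted p under 0.05 was found for 7, all of them higher. In either direction it was found for 4142 of all 15954 genes tested. By edgeR the count was 2 without BP04 and 0 without any other animal. Whether dissociation stress has a part in other differences was not tested. Fos had 932, 214, 307 and 303 CPM in hom stem libraries, against 944, 231, 307 and 309 CPM in hom TA libraries, so BN45 stood above the other animals in both fractions and the fractions overlapped (log2 -0.04, adjusted p = 0.773). Of the regenerative crypt genes 12 were tested and 3 were called higher, against 0 without any 1 animal. Clu, which marks revival stem cells, had 42.5, 11.4, 6.64 and 16.6 CPM in hom stem libraries, against 3.93, 0, 0 and 2.45 CPM in hom TA libraries (log2 fold change 4.50, SE 1.00, adjusted p = 0.0446). Ccn1, a target of YAP, averaged 145 ± 137 CPM in stem against 56.4 ± 66.7 CPM in TA libraries (log2 1.58, adjusted p = 0.0486). Ccn2, another, averaged 1.68 CPM in hom stem libraries and was at 0 counts in every hom TA library, which makes it at least 17.1-fold higher in stem libraries at a limit of 3 counts per library. Ly6a was at 0 to 3.81 CPM in stem against 0.547 to 4.14 CPM in TA libraries (log2 -1.86, adjusted p = 0.474). Clu (0.0658 to 0.129), Ccn1 (0.0562 to 0.156) and Ccn2 (0.0702 to 0.119) had an adjusted p above 0.05 whichever 1 animal was left out. Ifi44 was above 0.05 without BN45 (0.0603), Psmb9 without BN45 (0.0541) and BO25 (0.0633), and Egr1 without BN45 (0.127), BO25 (0.136) and BO57 (0.119).

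The same contrast in het animals, which shares no library with the hom one, called 824 of 16182 genes (5.09%) higher and 1024 (6.33%) lower in het stem than in het TA libraries. Of the 824 genes, 813 were tested in hom animals, 713 of these (87.7%) had the same sign there and 318 were also called. Their median log2 fold change was 0.69 in hom and 0.91 in het animals. Of the 1024 genes, 1013 were tested, 985 (97.2%) had the same sign and 473 were called, with medians of -0.69 in hom and -0.84 in het animals. The values in the genotype that chose the genes are raised by that choice. In the other direction, 582 of 613 genes called higher in hom animals (94.9%) and 768 of 802 called lower (95.8%) had the same sign in het animals, with medians of 0.98 in hom against 0.78 in het and of -0.83 in hom against -0.74 in het. No gene was called in opposite directions. With 1 hom animal left out and the het comparison kept, 132 to 180 genes were called higher and 158 to 257 lower in both.

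**Figure D4:**
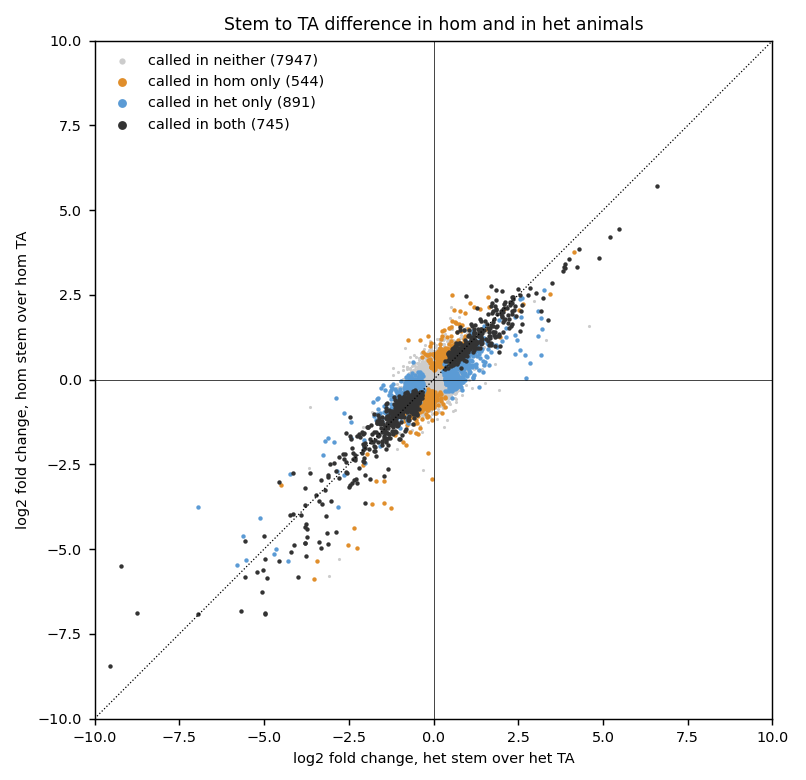
Log2 fold change of stem over TA libraries in hom animals (vertical) against het animals (horizontal) for 10127 genes with a mean of at least 5 CPM in each comparison. Colours show genes called in both (745), in hom only (544), in het only (891) or in neither (7947), and the dotted line marks equal values. The 745 genes called in both lie on the same side of 0 on both axes.

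Whether the difference between stem and TA libraries itself differed between genotypes was tested as an interaction over the 16 stem and TA libraries. edgeR called 0 of 17777 genes (0%), with a lowest adjusted p of 0.243, and 1635 genes had an unadjusted p under 0.05. limma-voom called 0, and DESeq2 called 133 with a more positive and 246 with a more negative difference in hom animals. Among those of smallest p was Anxa3, an annexin that binds phospholipids, with 9.01 ± 1.48 CPM in hom stem, 13.1 ± 2.13 CPM in hom TA, 1.97 ± 0.749 CPM in het stem and 14 ± 2.99 CPM in het TA libraries, an interaction of 2.32 on the log2 scale (SE 0.38, adjusted p = 0.243). Ndufa7, a complex I subunit, had 117 ± 35 CPM in hom stem, 133 ± 43 CPM in hom TA, 206 ± 16.2 CPM in het stem and 139 ± 23.8 CPM in het TA libraries, an interaction of -0.75 (SE 0.12, adjusted p = 0.243). Ryk, a receptor for Wnt ligands, had 26.1 ± 6.04 CPM in hom stem, 37.4 ± 6.75 CPM in hom TA, 34.6 ± 3.88 CPM in het stem and 23.7 ± 1.21 CPM in het TA libraries, an interaction of -1.08 (SE 0.18, adjusted p = 0.243). Rpl32 had 1133 ± 268 CPM in hom stem, 1158 ± 193 CPM in hom TA, 1248 ± 149.8 CPM in het stem and 786 ± 131 CPM in het TA libraries (-0.72, SE 0.13, adjusted p = 0.243). The others of smallest p were Ubxn7 (1.93), Cenpi (1.11), Washc4 (0.90), BC055324 (0.99), Tpm4 (0.55), Naa38 (-1.04), Smim8 (-0.87) and Ubl5 (-0.79), all with an adjusted p of at least 0.243. None of these passed by edgeR.

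Side by side, the stem marker list had medians of 1.28 in hom and 1.69 in het animals, with 25 of 35 genes called higher in hom and 28 in het animals. Lgr5 had a log2 fold change of 3.85 in hom and 4.31 in het animals, and the edgeR test of that difference gave an adjusted p of 0.730. Axin2 had 0.81 in hom and 1.92 in het animals (edgeR interaction adjusted p = 0.285), and DESeq2 called its difference negative. Goblet markers had medians of -5.01 in hom and -4.94 in het animals. Enterocyte genes had medians of -1.51 in hom and -0.46 in het animals. Of these genes, 19 of 33 were called lower in hom and 10 of 34 in het animals. The interaction was negative at an unadjusted p under 0.05 for 936 of all 17777 genes. It was so for 11 of 35 enterocyte genes. None passed by edgeR, and DESeq2 called Fabp1, Fabp2 and Prap1 negative. Fabp1 had -3.78 in hom and -1.26 in het animals (edgeR interaction adjusted p = 0.258).

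For ribosomal protein genes the medians were -0.03 in hom and 0.37 in het animals, with 0 of 54 called higher in hom and 22 in het animals. Of all 17777 genes tested, 9037 had a negative interaction, 936 of them at an unadjusted p under 0.05. Among the 54 ribosomal protein genes it was negative for 50, at an unadjusted p under 0.05 for 28. After adjustment edgeR called 0 of them and DESeq2 called 17, all negative, Rpl32 and Rps20 among them. For nuclear oxidative phosphorylation genes the medians were -0.54 in hom and -0.33 in het animals. Of 51 genes, 40 were called lower in hom and 22 in het animals. At an unadjusted p under 0.05, 20 of the 51 had a negative and 3 a positive interaction (all genes 936 and 699 of 17777). After adjustment edgeR called 0 of these and DESeq2 called 17 negative and 1 positive. Mitochondrially encoded genes had medians of 0.24 in hom and 0.19 in het animals. Cholesterol genes had medians of -0.72 in hom and -0.80 in het animals, with 11 of 24 called lower in hom and 17 in het animals. Other lists leaned the other way. For S phase genes the interaction was positive for 41 and negative for 8, at an unadjusted p under 0.05 for 6 and 1. For unfolded protein and integrated stress response genes it was positive for 20 and negative for 3, at that p for 6 and 0. After adjustment edgeR called 0 of both lists, and DESeq2 called 2 S phase and 3 unfolded protein genes, all positive. Genes of 1 list are not independent of each other, so these counts describe the libraries.

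**Figure D5:**
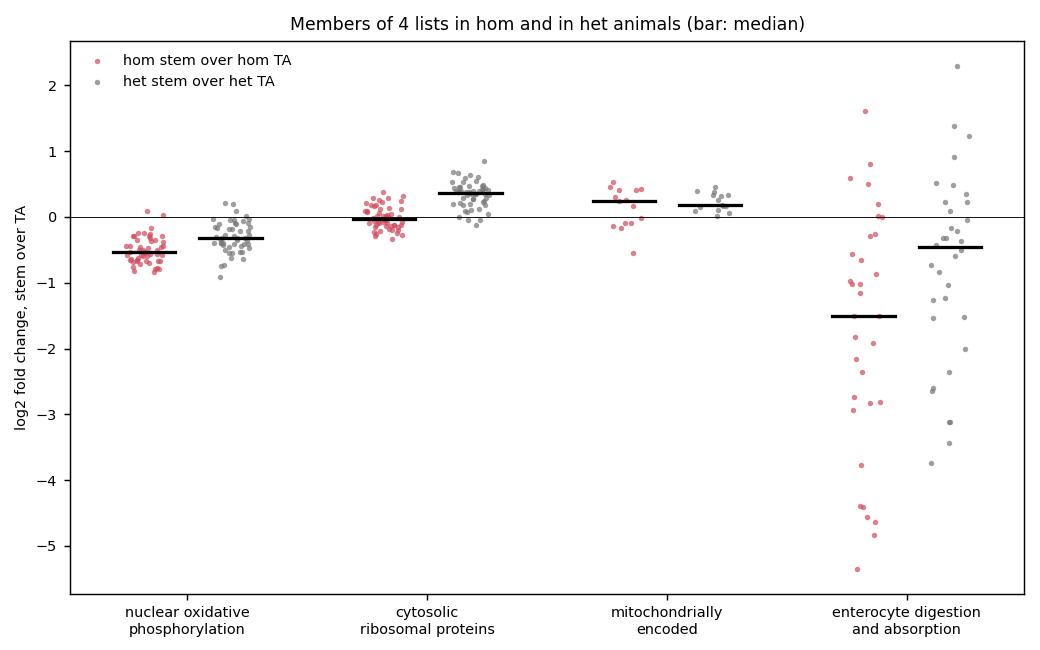
Log2 fold change of stem over TA libraries for the members of 4 lists, with hom animals (red) left of het animals (grey) and a bar at the median. The ribosomal protein medians are -0.03 in hom and 0.37 in het animals, the oxidative phosphorylation medians -0.54 in hom and -0.33 in het, and the enterocyte medians -1.51 in hom and -0.46 in het, with wide overlap of the points.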

How the data were processed

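RNA of sorted crypt fractions had been amplified as low-input cDNA over 17 cycles and tagmented from 3 ng, per the labels' protocols. The authors deposited a table of raw counts per gene, made with featureCounts 2.0.1 from Ensembl 98 genes on mm10, unstranded, per fragment and with a mapping quality of at least 1, per the file headers. Reads were split with bcl2fastq 2.20.0, per the submitters' processing notes. For the aligner, a version was not given in the sources used here. Since the counting used no strand, overlapping and antisense genes cannot be separated, and close copies may share reads. The deposited gene length, another column of the table, was not used for any value printed. Symbols came from GENCODE M21, which named 55154 of 55421 genes, and gene positions came from the deposited table. The 92 ERCC sequences were left out.

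Counts were scaled by TMM within the 8 libraries compared, filtered with filterByExpr and tested with edgeR 4.0.16 in R 4.3.3 by the quasi-likelihood F test, with a coefficient for the fraction and the animal as a block, and p-values were adjusted by Benjamini-Hochberg over all genes tested. The SE is the fold change over the square root of F. Each animal gave 1 stem and 1 TA library, per the sample titles, and the deviations of the libraries of 1 animal correlated with r of 0.45, 0.39, 0.29 and 0.35 over genes. The 4 animals of a genotype are separate mice. With the animal as a block, p-values measure how the stem to TA difference spreads between animals, not how levels do. No pair of libraries agreed within sampling noise. Sums of marker counts were tested with an exact two-sided permutation of signs within animals, in Python 3.11.15. DESeq2 1.42.0, limma-voom 3.58.1, another scaling, other filters, no block and leaving out 1 animal were the alternatives. The scripts were tested on simulated data. For a gene at 0 counts a limit of 3 counts per library was used, which covers counting error only, and reads without molecular identifiers are not independent molecules.

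The gene lists were chosen with earlier results of these data known. Named were the 14 called genes of largest change per direction with a mean of at least 5 CPM, the first 3 genes of each list, up to 4 members of smallest p, the 6 genes of smallest interaction p per direction and the 4 genes most like Lgr5. Left out were symbols of Gm and digits or ending in Rik or -ps. Single members of small counts (such as Zbtb7a, Creb3l4, Isx, Vdr, Mep1a, Clca4b, Asns, Herpud1, Trp53inp1 and Cldn4), and Bmi1, Hopx and the rest of the stem markers listed by name, were chosen after their values were seen. Promoter windows were searched for motifs in the RefSeq table of GRCm38.p6. Some genes that this rule names are not reported here.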

Additional observations from a re-analysis of the deposited data

Results flagged for a closer look

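In each group of 4 libraries a value was singled out where its gap to the nearest of the others, over the range of the group, passed Dixon's 95% critical value. Of 492 groups tested over 235 genes and the marker sums, 34 (6.91%) passed, where chance passes about 1 in 20. The hom TA library of BN45 held 7 of them, and the hom stem libraries of BN45 and BP04 held 6 each. The explanation of these values was not tested.

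In hom stem libraries, BN45 had the highest Fos, an immediate early gene, at 931.8 CPM, with the other 3 animals at 214 to 307 CPM. It was also highest for Errfi1 at 219.8 CPM (others 25.9 to 46 CPM), for Wls at 319.3 CPM (161 to 182 CPM), for Cd24a at 562.3 CPM (361 to 382 CPM), for Cldn23 at 39.24 CPM (12.9 to 16 CPM) and for Mgat4c at 0.5097 CPM (0 to 0.0253 CPM). BP04 had the highest Slc38a4 at 20.16 CPM (13 to 13.6 CPM), Galnt7 at 83.63 CPM (56.7 to 60.7 CPM) and Efnb2, an ephrin ligand, at 9.145 CPM (3.62 to 3.70 CPM). Bmp2, a BMP ligand, reached 5.372 CPM in BP04 (0.276 to 0.684 CPM), Fer1l6 1.19 CPM (0 to 0.0506 CPM) and the tuft cell channel Trpm5 0.748 CPM (0 to 0.107 CPM). BO57 had the lowest Erbb3 at 83.53 CPM (114 to 117 CPM) and the highest Klf4 at 14.07 CPM (6.90 to 7.97 CPM). It was highest as well for Tph1, of serotonin synthesis, at 1.279 CPM (0 to 0.0759 CPM), for the tuft cell gene Rgs13 at 1.59 CPM (0 to 0.253 CPM) and for the pericyte gene Pdgfrb at 1.901 CPM (0.483 to 0.532 CPM). BO25 had the highest Chgb at 3.468 CPM (0.136 to 0.657 CPM) and the highest sum of immune cell markers at 0.004707% of counts (0.00107 to 0.00145%).

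In hom TA libraries, BN45 again had the highest Fos at 943.8 CPM (231 to 309 CPM) and Errfi1 at 117.4 CPM (20.4 to 25.5 CPM). Areg, an EGF receptor ligand, was at 45.78 CPM in BN45 (3.44 to 7.68 CPM), Ccn1 at 155.4 CPM (16.2 to 37.1 CPM), Lyz1 at 1062 CPM (93.7 to 237 CPM) and Ifi44 at 5.337 CPM (0.358 to 0.901 CPM). Hes1 was lowest in BN45 at 81.94 CPM (127 to 133 CPM). BO57 had the highest levels of the tuft cell genes Rgs13 at 21.38 CPM (0 to 1.95 CPM), Hpgds at 4.047 CPM (0.0335 to 0.660 CPM) and Ltc4s at 1.397 CPM (0.150 to 0.322 CPM), and of Nkd1 at 0.2149 CPM (0 to 0.0300 CPM). BO25 had the highest Cdx2 at 14.35 CPM (5.59 to 6.87 CPM) and Lgals3 at 40.13 CPM (22.3 to 25.1 CPM). BP04 had the lowest Scin at 36.11 CPM (108 to 118 CPM) and Lypd8 at 2948 CPM (3247 to 3302 CPM).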

How the results depend on the processing

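The direction of every called gene that the text names by its rule held under every alternative that tested it (146 of 238 named genes were called). Of these 146, 43 stayed past the threshold in all alternatives and 50 in each of the 4 fits without 1 animal. Counts of calls moved more. For hom stem against hom TA libraries, DESeq2 with the animal as a replicate block called 1500 genes higher and 1650 lower, and edgeR with no replicate block called 324 higher and 412 lower. Without 1 animal the counts ranged over 164 to 262 higher and 201 to 366 lower, in fits of 6 libraries. For het stem against het TA libraries, DESeq2 called 1666 higher and 1898 lower, edgeR with no replicate block 435 and 578, and the fits without 1 animal 250 to 363 and 347 to 529. The interaction count of 0 was 0 in each edgeR and limma-voom setting, while DESeq2 called 133 positive and 246 negative. Genes called higher in both genotypes numbered 480 with a mean of at least 5 CPM, 757 by DESeq2, 183 with no replicate block and 132 to 180 without 1 hom animal. Genes called lower in both numbered 1038 by DESeq2, 251 with no replicate block and 158 to 257 without 1 hom animal. The share of genes called higher in het animals with the same sign in hom animals was 95.3% with no replicate block. The cause of the differences between tools was not tested. DESeq2 size factors and the filters on low counts otherwise left the counts of calls within 1.5 times. Genes at a few counts in 1 fraction have fold changes that depend on the fit, and with 4 animals a difference that missed the threshold is not shown to be absent.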
